A study of Mus musculus with 8 samples.

Results

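Resting B cells that carried an IgM antigen receptor were compared with resting B cells that carried a chimeric receptor called IgMG, before any antigen was given. The arrays were chosen by title: 2 arrays of unstimulated IgM cells and 2 arrays of unstimulated IgMG cells, 4 of the 8 arrays in the study. The other 4 held cells of both kinds stimulated with hen egg lysozyme (HEL), the protein that the receptors of all groups recognise. IgMG is IgM with its spacer, membrane anchor and intracellular tail exchanged for the matching parts of IgG1. The cells came from mice and are labelled FO B cells, FO being the usual short form for follicular. Each resting array held pooled sorted cells: IgM array 1 pooled 2 mice from 1 sort, IgM array 2 pooled 4 mice from 2 sorts, IgMG array 1 pooled 5 mice from 2 sorts and IgMG array 2 pooled 6 mice from 2 sorts. The IgMG arrays pooled more mice than the IgM arrays, so the effect of the receptor and that of pooling cannot be told apart. Mouse strain, age, the way the receptors were expressed and the sorting gate were not given in the labels used here. Nothing in the labels shows whether arrays shared mice or sorts, so p-values measure only the spread between these arrays, which may be technical.

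A membrane antibody signals through its partners Cd79a and Cd79b. Their phosphorylated tails recruit the kinase Syk, and coreceptors such as Cd22 and phosphatases such as Ptpn6 and Ptpn22 restrain the signal. The IgM heavy chain has almost no intracellular tail, whereas the longer tail of IgG carries a conserved tyrosine and is known for changing how switched B cells respond to antigen. Naive follicular B cells are quiescent, recirculate between blood and lymphoid organs, and present antigen on MHC class II.

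All values are MAS5 signals, a brightness per probe set on a linear scale, where a probe set is a group of short probes for 1 transcript. Of 12422 probe sets that are not controls, the 7453 brightest were tested, each as log2(signal + 16). Differences are IgMG minus IgM on that scale, with the standard error (SE) of the limma fit. This scale understates the change of dim genes. Median signal was between 40.7 and 47.75 on the resting arrays. The Gapdh 5'/3' signal ratio, a sign of RNA integrity, was 0.373 and 0.259 on the IgM arrays and 0.237 and 0.395 on the IgMG arrays, so the groups overlapped in it.

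The resting arrays did not sort by receptor. Over the tested probe sets the IgMG pair was the least alike, with a Pearson correlation of log2 signals of 0.939 and 480 probe sets at least 2-fold apart. The IgM pair had a correlation of 0.970 and 181 such probe sets. The closest pair crossed the groups: IgM array 2 and IgMG array 1, with 0.973 and 166. These correlations are over probe sets of 1 array type and are given as descriptions. IgMG array 2 stood apart on the high side, with 120 probe sets at least 2-fold above all other resting arrays. That count was 10 for IgM array 1, 2 for IgM array 2 and 7 for IgMG array 1. On the low side, each IgMG array had 42 probe sets at least 2-fold below all other resting arrays. There the count was 19 for IgM array 1 and 10 for IgM array 2.

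Many of the genes that set IgMG array 2 apart were markers of other blood cells. Gzma, a protease of killer cell granules, had signals of 59.3 and 47.4 on the IgM arrays and 80.5 and 1227 on the IgMG arrays. Ccl5, a chemokine of NK and T cells, had 196.6 and 100.8 against 269.7 and 1465. Summed over the 15 NK cell markers on the array, the signal was 592 and 537 in IgM and 743 and 4842 in IgMG. IgMG array 1 was thus a little above both IgM arrays, and IgMG array 2 was far above all of them.

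Neutrophil transcripts followed the same array but not the receptor. S100a8, a calprotectin subunit of neutrophils, had signals of 1568 and 963 on the IgM arrays and 371 and 5339 on the IgMG arrays. The summed signal of 17 neutrophil granule and S100 genes was 5599 and 3274 in IgM and 1399 and 18831 in IgMG, so IgMG held both the lowest and the highest array. The 30 myeloid and macrophage markers summed to 4651 and 4038 in IgM and to 5419 and 14144 in IgMG, where the groups did not overlap. T cell genes were mixed. Cd3e, part of the T cell receptor complex, was dim, with signals of 8.9 and 9.0 against 6.7 and 8.0, and Cd8a had 5.0 and 12 against 2.2 and 9.2. Others were highest on IgMG array 2: Trbv1 had 108.0 and 72.7 against 68.2 and 249.5, and Cd4 had 25.4 and 13.7 against 13.5 and 73.4. Of 7 tested genes of the T cell list, 2 were at least 2-fold above all other resting arrays on IgMG array 2. The summed T cell list was 1985 and 1796 in IgM and 1983 and 1864 in IgMG.

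**Figure D1:**
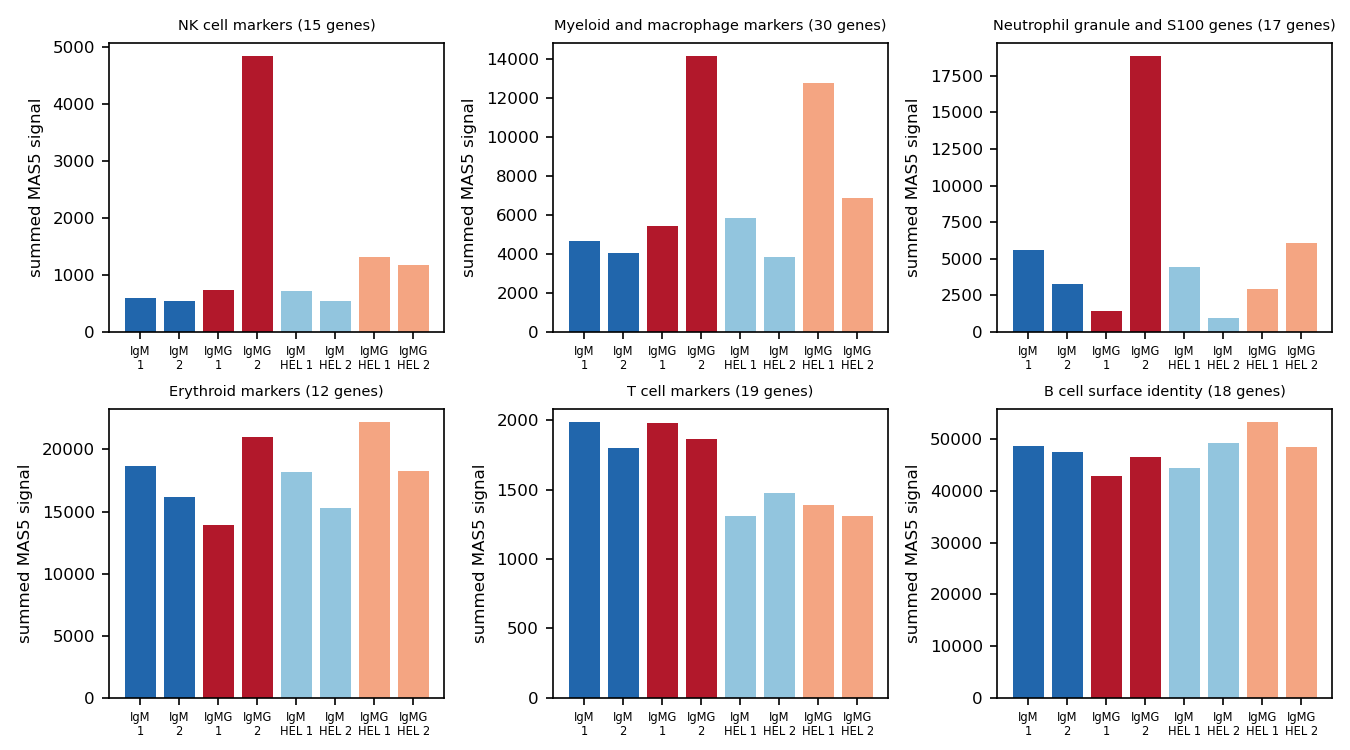
Summed MAS5 signal (linear, from 0) of 6 marker lists on each of the 8 arrays, with resting arrays in dark blue (IgM) and dark red (IgMG) and HEL arrays in light colours. NK, myeloid and neutrophil lists peak on resting IgMG array 2 (4842, 14144 and 18831). The sums of T cell markers and of B cell surface genes differ little among the resting arrays, though single T cell genes differ more.

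The sex of the pooled mice also differed within the groups, as far as these transcripts show it. Xist, the RNA that silences an X chromosome in female cells, had signals of 9.3 and 614.9 on the IgM arrays and 160.7 and 0.9 on the IgMG arrays. Eif2s3y, a Y-linked translation factor, had 332.8 and 141.8 against 5.1 and 326. Uty, another Y-linked gene, had 28.3 and 9.1 against 2.1 and 45.3. IgM array 1 and IgMG array 2 were near 0 for Xist and highest for both Y-linked genes. IgM array 2 held clear signal of Xist and of Eif2s3y, and IgMG array 1 held Xist with next to no Y-linked signal. Each receptor group so had 1 array near 0 for Xist and 1 with it, and the part of sex in the results below was not tested.

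**Figure D2:**
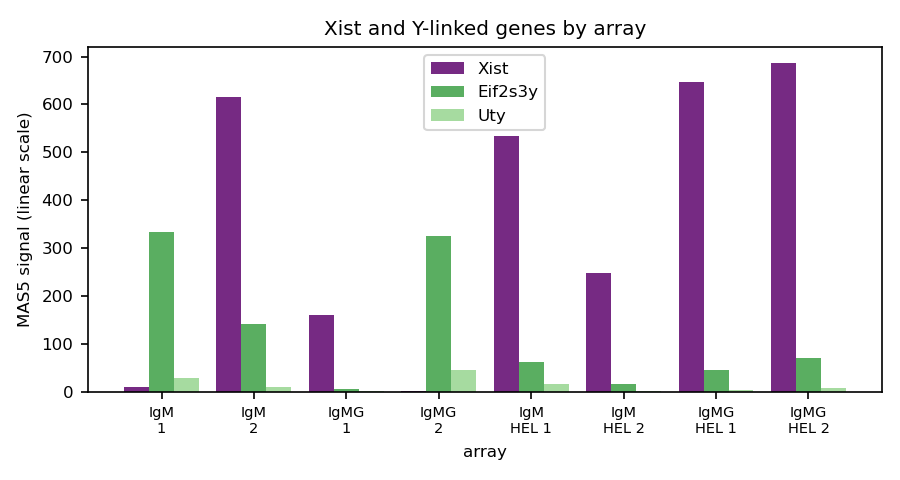
MAS5 signal (linear, from 0) of Xist and of the Y-linked genes Eif2s3y and Uty on each of the 8 arrays, 1 bar per gene. Xist is 9.3 on resting IgM array 1 and 0.9 on resting IgMG array 2, and Eif2s3y is 332.8 and 326 on those arrays.

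The brightest probe sets at rest were largely the same for both receptors. Probe sets differ in how well they bind, so brightness is not a ranking of transcript numbers. Of the 30 brightest named probe sets, 27 were among the 30 brightest of both receptor groups taken singly, as were 94 of the brightest 100, and 26 of the 30 were also among the 30 brightest of the HEL arrays. The 30 stood for 28 genes, and 18 probe sets with no single gene symbol were brighter than the last of them.

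The receptor itself came near the top. Ighm, the IgM heavy chain gene, had signals of 10688 and 10500 on the IgM arrays and 8807 and 12483 on the IgMG arrays. The log2 difference was -0.01 ± 0.18 (SE), with a 95% confidence interval from -0.43 to 0.40. A second Ighm probe set had 10755 and 9605 in IgM and 7912 and 8465 in IgMG, without overlap. Its difference was -0.31 ± 0.12 (SE), with an unadjusted p = 0.0285 and an adjusted p = 0.992 in limma. The brighter set overlapped and the other did not, and it is not known here which exons either detects. The probe set named for the kappa variable gene Igkv6-23 had signals between 8193 and 9834.

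The other bright probe sets fell into a few classes. Of the 30, 12 were for ribosomal proteins, led by Rpl41 at 10235 and 9873 in IgM and 9058 and 10623 in IgMG. Eef1a1, the elongation factor that brings tRNAs to the ribosome, and Tpt1, whose mRNA is translated with those of ribosomal proteins, were also among them. Antigen presentation gave Cd74, the invariant chain that guides class II molecules, the class II chains H2-Aa and H2-Eb1, and the class I chain H2-K1. Lymphoid genes were Cd79a, Cd79b, the lymphotoxin gene Ltb and the GPI-anchored surface protein gene Ly6e. Gnai2, a G protein subunit used by chemokine receptors, and the actin-binding thymosins Tmsb4x and Tmsb10 completed the cell-biological part.

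A pair of the brightest entries belong to other cells by name. Hba-a1, the alpha globin of red cells, was the brightest of all, at 10617 and 10341 in IgM and 9595 and 12921 in IgMG. The 12 erythroid markers summed to 18651 and 16135 in IgM and 13946 and 21041 in IgMG, with overlap of the groups. Sprr1b, a skin cornification gene by the annotation, had 5423 and 5524 against 5569 and 8005. Red cell transcripts were therefore bright on every resting array, and their part in other signals was not tested.

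Among these 30 probe sets the largest difference in size between the receptors was that of the second Ighm probe set. The groups did not overlap in 6 of the 30, where 31.6% of all tested probe sets did not overlap, and 1 had an unadjusted p under 0.05 in limma.

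**Figure D3:**
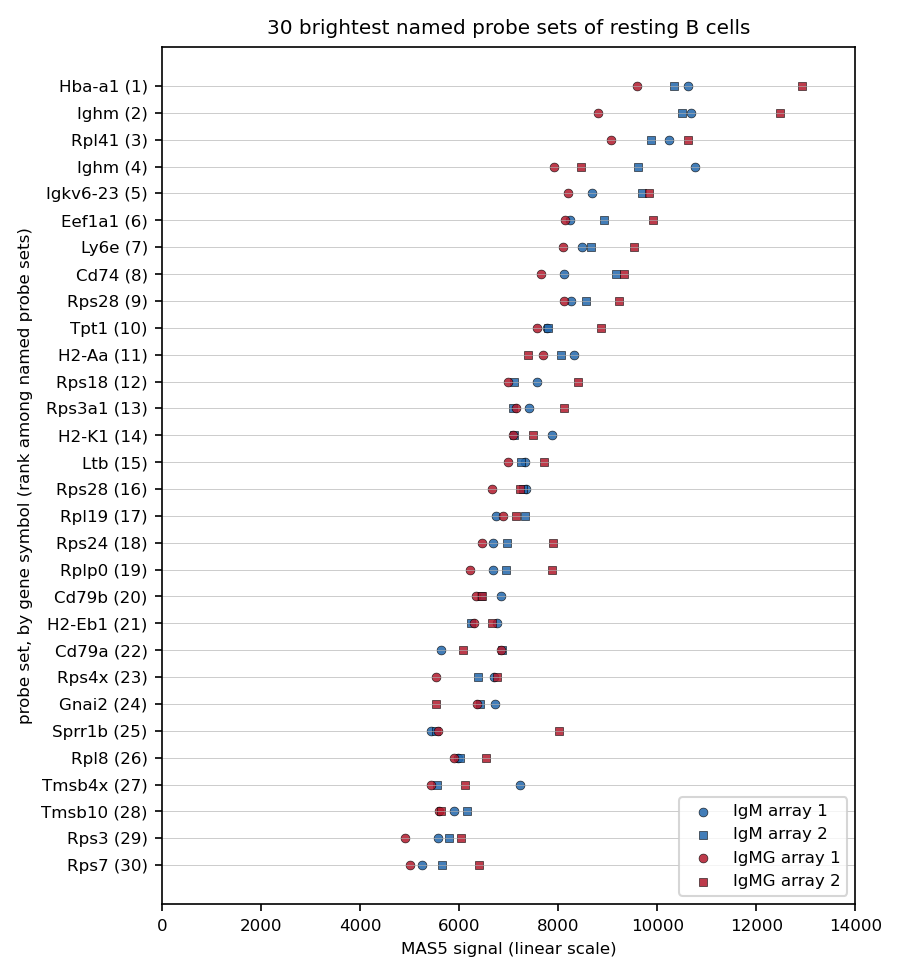
MAS5 signal (linear, from 0) of the 30 brightest named probe sets at rest, 1 point per array, blue for IgM, red for IgMG, circles for array 1 and squares for array 2. The 4 arrays lie close together in each row, and IgMG array 2 is the highest in many rows, such as Hba-a1 at 12921.

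Class II genes share a promoter code in which an inverted CCAAT element, the Y box, lies close to the start and is bound by NF-Y. The 100 bases before the start are printed for the class II chains among the 30, in RefSeq's GRCm38.p6, to show the element that these bright genes share. Capitals mark CTGATTGG, searched on both strands. H2-Aa lies on the minus strand at chr17:34287824-34287923, with the first capital 51 bases upstream of the start. H2-Eb1 lies on the plus strand at chr17:34305767-34305866, with the first capital 62 bases upstream.
H2-Aa: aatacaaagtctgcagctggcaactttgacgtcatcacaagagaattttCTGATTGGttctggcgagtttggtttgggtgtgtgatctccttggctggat
H2-Eb1: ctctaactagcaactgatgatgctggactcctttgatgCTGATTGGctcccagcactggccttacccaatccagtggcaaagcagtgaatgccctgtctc
The motif was present on either strand in 826 of 32851 such windows, or 2.51%. A match is a description and not a bound site. H2-Aa had signals of 8316 and 8054 in IgM and 7685 and 7385 in IgMG, without overlap, and a difference of -0.12 ± 0.13 (SE). H2-Eb1 had 6760 and 6240 against 6287 and 6657, with overlap, and -0.01 ± 0.12 (SE).

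The comparison of IgMG with IgM asked whether the exchanged spacer, membrane anchor and tail together went with other transcripts before antigen. No probe set passed. By limma 0 of 7453 (0.0%) had an adjusted p under 0.05, and the lowest adjusted p was 0.965. An unadjusted p under 0.05 was reached by 344 probe sets (4.62%), 202 higher (2.71%) and 142 lower (1.91%) in IgMG, where 372.65 would be reached by chance. Most probe sets differed little: 90.7% were within 0.5 on the log2 scale. The median SE was 0.24 and the median difference was 0.01. On simulated data for this comparison the test recovered 55% of changes of 1 and 96% of changes of 2 on the log2 scale. The simulated noise was independent between probe sets and had the same spread on every array. It held no joint shift of many probe sets on 1 array, as on IgMG array 2, so these shares may not hold for the real arrays. With 2 arrays in each group, the smallest p that an exact permutation test can give is 0.333.

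By size alone, 91 probe sets (1.22%) differed at least 2-fold without overlap of the groups, 68 higher (0.912%) and 23 lower (0.309%) in IgMG. Without the genes of the NK, myeloid, neutrophil, erythroid and sex-linked lists, 51 higher and 23 lower were left. Probe sets without a single gene symbol and genes not on these lists stayed in, so signal of such cells may remain among them. Counted between single arrays, 181 and 480 probe sets were at least 2-fold apart within the receptors and 166 to 401 across them.

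Among signalling parts of the receptor, the core differed little. Cd79a had signals of 5637 and 6863 in IgM and 6842 and 6079 in IgMG, and Cd79b had 6850 and 6443 against 6332 and 6452, both with overlap. Their log2 differences were 0.05 ± 0.17 (95% interval -0.33 to 0.43) and -0.06 ± 0.14 (-0.38 to 0.27) (SE). Syk, the kinase that reads their tails, had 3399 and 3052 against 2991 and 2327, without overlap, a difference of -0.29 ± 0.18 (SE). Fyn, a Src family kinase, had 141.4 and 173.3 against 232 and 334, and 0.77 ± 0.22 (SE), with an unadjusted p = 0.00744 and an adjusted p = 0.965 in limma. Of the 19 tested genes of receptor signalling, Fyn was the 1 without overlap and higher, and 2 were lower, with a list median of -0.06. Over all genes, counted once each, the groups did not overlap in 16.7% higher and 15.3% lower, with a median of 0.01. The share of this list was below that in both directions.

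Among inhibitors, the phosphatase Ptpn22 had the smallest unadjusted p of all named genes with higher values. Ptpn22 dephosphorylates Src and Syk family kinases after antigen receptor signals. Its signals were 179 and 196 in IgM and 431 and 742 in IgMG, without overlap, and the difference was 1.52 ± 0.25 (SE, adjusted p = 0.965 in limma). The better known inhibitors were closer together. Ptpn6, the SHP-1 phosphatase, had 1291 and 1254 against 1242 and 1410, and a difference of 0.06 ± 0.18 (SE). Cd22, an inhibitory coreceptor, had 1242 and 1326 against 1238 and 1020, a difference of -0.19 ± 0.15 (SE). Fcgr2b, the inhibitory Fc receptor, had 463 and 470.2 against 490.0 and 537, and 0.13 ± 0.16 (SE). Of 20 tested inhibitory receptors and phosphatases, 6 were higher without overlap and 4 lower, beside 16.7% and 15.3% over all genes, with a median of 0.12.

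The genes given next were picked for the smallest unadjusted p among those without overlap, 12 in each direction, so their separation is how they were chosen and not a result. All 24 had an adjusted p of 0.965 in limma. Of the 12 higher ones, Ctse, the endosomal protease cathepsin E, had signals of 459 and 395.5 in IgM and 1057 and 2561 in IgMG, a difference of 1.91 ± 0.36 (SE). Of its other probe sets, 1 was also higher (1.81) and 1 was lower (-0.61). Apoe, a lipid carrier of macrophages, had 82.4 and 118.4 against 276.5 and 723, and 2.02 ± 0.44 (SE). Both genes were higher on IgMG array 1 as well as on array 2, and both were highest on array 2, where the myeloid list was highest too.

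Dtx1, Deltex, a regulator of Notch signalling, was higher to a like degree on both IgMG arrays. Its signals were 136 and 254 in IgM and 478 and 433 in IgMG, and its difference was 1.22 ± 0.27 (SE). S100a6, a calcium-binding protein, had 457 and 244.5 against 659 and 1127, and 1.32 ± 0.34 (SE). Fxyd5, a regulator of the sodium pump, had 252 and 327 against 429 and 599.7, and 0.79 ± 0.21 (SE). IgMG array 2 was the highest array for S100a6 and Fxyd5, and array 1 for Dtx1.

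Dimmer members of the 12 lay nearer the floor of the scale. Socs5, a suppressor of cytokine signalling, had 13.4 and 33.1 against 97.0 and 71.2. Fabp5, a fatty acid carrier, had 16.7 and 29.7 against 72.0 and 69.3, and the homeobox gene Six2 had 18.8 and 27.7 against 71.1 and 68.3. The potassium channel gene Kcnj9, the cytochrome gene Cyp4f13 and Nbeal2, known for its role in platelet granules, had differences of 1.35 ± 0.30, 0.98 ± 0.22 and 0.86 ± 0.20 (SE). Socs5, Fabp5 and Six2 were under 34 on both IgM arrays, where the log2(signal + 16) scale compresses differences. That is below the median signal of each resting array (40.7 to 47.75). Detection calls were not used, so these IgM signals may be background.

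Of the 12 lower genes, Sema4b, a transmembrane semaphorin, had the smallest unadjusted p. Its signals were 727 and 651 in IgM and 245.4 and 305 in IgMG, a difference of -1.28 ± 0.22 (SE). Its other tested probe sets did not repeat this, with 0.38 and -0.27. Cyfip2, part of the complex that starts actin branching, had 836 and 673 against 374 and 429.5, and -0.88 ± 0.19 (SE). Ago2, the slicing Argonaute of RNA interference, had 535 and 544 against 179 and 338, and -1.08 ± 0.25 (SE). In all 3, IgMG array 1 was the lowest array.

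A transcription factor and a cell cycle gene were among the lower ones. Runx1, which acts in blood cell development, had 148.5 and 180.3 in IgM and 11.9 and 77.0 in IgMG, a difference of -1.82 ± 0.46 (SE). Ccnd2, the D-type cyclin that B cells use to enter the cycle, had 235 and 113 against 47.7 and 44.7, and -1.53 ± 0.40 (SE). Runx1 was lowest on IgMG array 1, while Ccnd2 was equally low on both IgMG arrays and varied 2-fold between the IgM arrays.

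The rest of the 12 covered several roles. The DNA repair gene Apex1 had a difference of -0.86 ± 0.22, and Polm, a DNA polymerase of end joining, of -0.73 ± 0.20 (SE). The interferon-induced GTPase gene Ifi47 had signals of 610.2 and 603 in IgM and 356 and 320.4 in IgMG. Hsd17b12, of fatty acid elongation, had -0.65 ± 0.18 (SE), Gpr162, an orphan receptor, -0.83 ± 0.23 and Gm9706 -0.86 ± 0.24. Gfra2, a neurturin receptor, was dim, at 48.8 and 44.3 against 14.5 and 11.5.

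**Figure D4:**
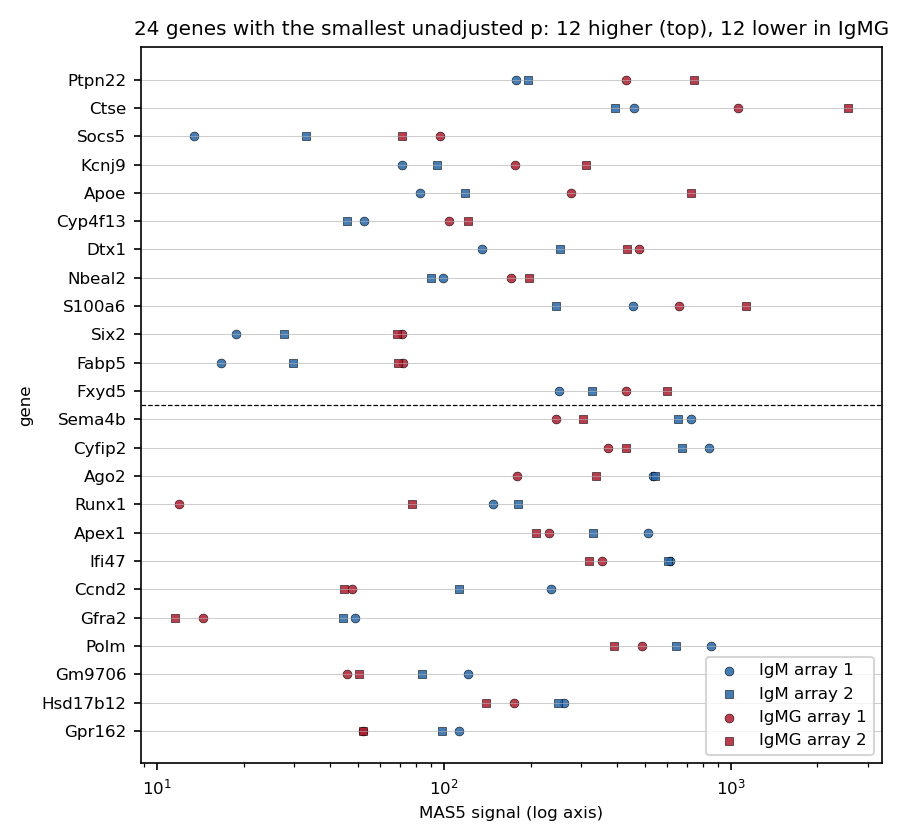
MAS5 signal (log axis) on the 4 resting arrays of the 24 genes picked by unadjusted p, blue for IgM, red for IgMG, circles for array 1 and squares for array 2, with the higher 12 above the dashed line. Red and blue points do not overlap in any row by choice, and the red points of Ctse, Apoe and Runx1 lie far apart (1057 and 2561 for Ctse).

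The HEL arrays gave a second measure of the receptor difference, on other arrays and in stimulated cells. The Gapdh 5'/3' ratio was 0.328 and 0.755 on the HEL IgM arrays and 0.221 and 0.14 on the HEL IgMG arrays, without overlap. The part of RNA integrity in the HEL differences was not tested. The resting and HEL differences went together little: Pearson's r was 0.02 and Spearman's rho -0.07 over the 7453 probe sets, which are not independent of each other. The sign was the same for 45.6% of all tested probe sets and for 50.3% of the 344 with an unadjusted p under 0.05 at rest. Of the 12 higher genes 6 had the same sign with HEL, and of the 12 lower genes 5.

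A few of the 24 kept the receptors apart in both states. Over all tested probe sets the groups did not overlap, in the same direction in both states, for 3.54% higher and 2.74% lower. Since the 24 were picked without overlap at rest, the share to read them against is that among probe sets without overlap at rest: 264 of 1228 higher ones (21.5%) and 204 of 1126 lower ones (18.1%) were also apart in that direction with HEL. Among the 12 higher genes this held for 5: Ptpn22, Ctse, S100a6, Fxyd5 and Cyp4f13. Among the 12 lower it held for 3, near that share: Apex1, Ifi47 and Polm. Ptpn22 with HEL had signals of 937 and 919 in IgM and 1735 and 1296 in IgMG, a difference of 0.68 ± 0.25 (SE). S100a6 with HEL had 194 and 132 against 379 and 462, and 1.30 ± 0.34 (SE), as large as at rest. Ctse with HEL had 359.7 and 415 against 1184 and 838, and 1.33 ± 0.36 (SE). For Dtx1 the groups were apart at rest but not with HEL, where it had 337 and 466 against 363 and 399, with overlap, and -0.06 ± 0.27 (SE). The change of the Dtx1 difference from rest to HEL was -1.28, with an adjusted p = 0.414 in limma.

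NK and myeloid markers moved with the receptor on the HEL arrays too. The 15 NK markers summed to 725 and 535 in HEL IgM cells and to 1321.5 and 1168 in HEL IgMG cells, and the 30 myeloid markers to 5826.5 and 3819 against 12794 and 6874, both without overlap. The neutrophil list overlapped, at 4417 and 939 against 2954 and 6091, and so did the T cell list, at 1310 and 1474 against 1386 and 1308. The part of such cells in the values of Ctse, S100a6, Ptpn22 and Fxyd5 was not tested.

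Averaged over rest and HEL, 4 arrays against 4, limma called 0 probe sets (0.0%) at an adjusted p under 0.05, the lowest adjusted p was 0.271, and 575 (7.72%) had an unadjusted p under 0.05. The difference between the resting and the HEL contrast gave 0 probe sets (0.0%) past an adjusted p of 0.05 and 750 (10.1%) with an unadjusted p under 0.05.

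**Figure D5:**
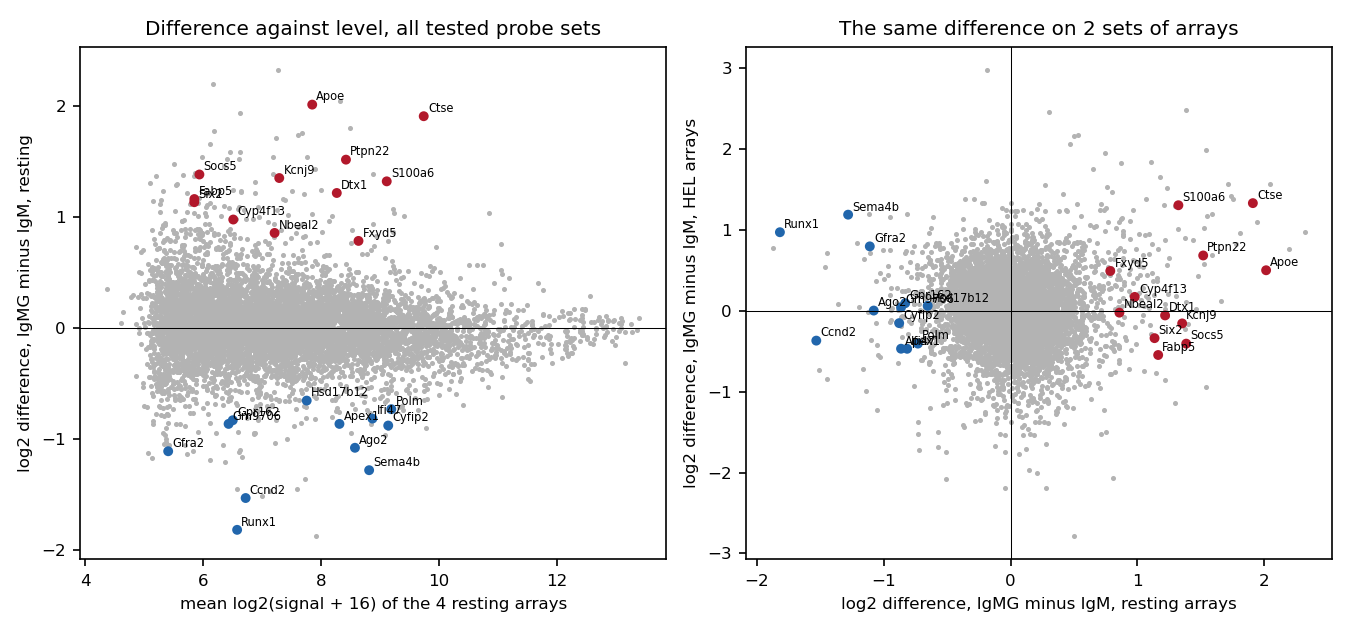
Left, log2 difference IgMG minus IgM at rest against mean log2(signal + 16) of the 4 resting arrays for 7453 probe sets; right, the same difference on the HEL arrays against that on the resting arrays. Grey points are all probe sets and coloured points the 24 picked genes: Ctse, S100a6 and Ptpn22 lie high in both, while Sema4b and Runx1 lie low at rest and high with HEL.

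In most follicular genes the groups overlapped, as they did in most tested genes. Fcer2a, the CD23 antigen of follicular cells, had signals of 1099 and 3434 in IgM and 2855 and 2164 in IgMG, so the lowest and the highest array were both IgM. Klf2, a factor of quiescence and recirculation, had 1071 and 946 against 1011 and 773, and a difference of -0.18 ± 0.38 (SE). Satb1, a chromatin organiser, had 637 and 962.5 against 735 and 856. Of 10 tested follicular genes 1 was higher without overlap and 0 lower, beside 16.7% and 15.3% over all genes, and the median was 0.02. That gene was Cr2, which is also on the marginal zone list.

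Marginal zone B cells are an innate-like subset at the edge of the splenic follicle. Of 14 of their markers tested, 6 were higher without overlap and 0 lower, where 16.7% and 15.3% of genes were, and the median was 0.21. The median was 0.19 without IgMG array 2 and 0.24 without IgMG array 1. Cr2, the complement receptor CD21, had 45.6 and 68.3 in IgM and 85.6 and 98.8 in IgMG, and 0.58 ± 0.24 (SE). Cd9, a tetraspanin, had 117.8 and 67.9 against 163.9 and 213.4, and 0.94 ± 0.37 (SE). Cd1d1, which presents lipids, had 400.1 and 490.5 against 507 and 535, and 0.23 ± 0.25 (SE). All 3 were also higher without overlap with HEL, by 0.42 ± 0.24, 0.89 ± 0.37 and 1.32 ± 0.25 (SE). For Cd1d1 both groups were lower with HEL than at rest, at 168.5 and 89.2 in IgM and 341.8 and 323.1 in IgMG. The change of the Cd1d1 difference from rest to HEL was 1.10, with an adjusted p = 0.42 in limma.

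Other marginal zone genes did not follow. Notch2, the receptor that directs cells to this fate, had 229 and 368 against 456 and 248, with overlap, and S1pr3, a sphingosine phosphate receptor, had 50.8 and 79.3 against 75.0 and 83.1. S1pr1, which governs exit from lymphoid organs, was higher at rest (58.4 and 35.5 against 63.3 and 75.9) and lower with HEL (-0.13 ± 0.24, SE). Hes1, a Notch target, had the lowest difference of the list, -0.76 ± 0.37 (SE), from 618 and 254 against 287.5 and 181, with overlap. In bulk RNA, more cells of a subset and more RNA per cell cannot be told apart. At rest Cr2, Cd9 and Cd1d1 were highest on IgMG array 2, where the myeloid list was highest too. The part of other cells in their values was not tested. No marginal zone gene had an adjusted p under 0.05 in limma, and 4 had an unadjusted p under 0.05.

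Of 24 tested B cell transcription factors, 9 were lower without overlap and 3 higher, beside 15.3% lower and 16.7% higher over all genes, with a median of -0.16. The list as a whole was not tested. Spib, an Ets factor of B cells, had 4107 and 3032 in IgM and 2693 and 2380 in IgMG, a difference of -0.48 ± 0.19 (SE) at rest and -0.44 ± 0.19 with HEL. Pou2af1, the coactivator OBF1, had 1937 and 2203 against 1616 and 1828, and Irf8 had 2727 and 2352 against 2237 and 2226. Pax5, which keeps B cell identity, had 1130 and 1152 against 1414 and 851, with overlap, and -0.05 ± 0.22 (SE). With HEL the median of the list was 0.25, of the opposite sign. The highest member was Id2, an inhibitor of E proteins that NK and myeloid cells also express, at 209.9 and 148.6 against 224.5 and 500.2.

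Of 27 tested interferon-stimulated genes, 11 were lower without overlap and 2 higher at rest, beside the same 15.3% and 16.7% over all genes, with a median of -0.20, and of -0.28 and -0.30 without IgMG array 2 or array 1. Ifi47 was the lowest of them, at -0.82 ± 0.21 (SE). The brightest were Ly6e (0.03 ± 0.14), Psmb8 (0.17 ± 0.13) and Psmb9 (-0.01 ± 0.18) (SE), of which Psmb8, an immunoproteasome subunit, was higher without overlap. By limma 5 members had an unadjusted p under 0.05 and lower values, and 0 an adjusted p under 0.05. With HEL the median was 0.21.

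The counts of the other lists stand beside 15.3% lower and 16.7% higher over all genes, and no list was tested. Of 18 surface identity genes 6 were lower without overlap and 1 higher, with a median of -0.13; Ms4a1, CD20, had 5641 and 4888 against 4055 and 4973. Of 15 class II presentation genes 2 were lower and 2 higher, near those shares, with a median of -0.03. Of 25 ribosomal protein genes 2 were higher and 0 lower, with a median of 0.03. Of 36 actin genes 7 were lower and 1 higher, with a median of -0.10; the higher one was Gsn, the filament-severing gelsolin, at 307 and 359 against 571 and 508.

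Among immediate-early genes, the antigen-induced factors Egr1, Egr2, Nr4a1 and Myc had low signals in both groups, while Jund, a member of the AP-1 family, and the antiproliferative genes Btg1 and Btg2 were bright. Jund had signals of 3294 and 2876 in IgM and 2062 and 3727 in IgMG. Egr2, a zinc finger factor of the antigen response, had signals of 21.6 and 38.3 in IgM and 18.2 and 36.1 in IgMG, against at least 2288 on each HEL array. Egr1 had 72.7 and 136 against 78.7 and 114. Nr4a1, a nuclear receptor gene, had 46.3 and 51.6 against 48.2 and 141.9, with IgMG array 2 above the others. Myc had 140.4 and 186.8 against 95.4 and 136.4, without overlap, and a difference of -0.45 ± 0.22 (SE). Of 22 tested members 2 were higher without overlap and 4 lower, beside 16.7% and 15.3% over all genes, with a median of 0.00.

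Of the genes named for other cells, the myeloid list held the most members without overlap. Of 27 tested, 16 were higher and 0 lower, beside 16.7% and 15.3% over all genes. Their median was 0.99, and 11 had an unadjusted p under 0.05 in limma. The median was 0.23 without IgMG array 2 and 1.80 without IgMG array 1. Tyrobp, a signalling adaptor of myeloid and NK cells, had 526 and 405 in IgM and 480.0 and 1862 in IgMG, and Lyz2, lysozyme, had 519 and 199 against 219 and 1796. For both, IgMG array 1 lay between or beside the IgM arrays. Apoe, given above, was the highest of the list, and Adgre1, the F4/80 antigen, the lowest, at 46.4 and 31.4 against 31.0 and 82.4.

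Complement genes of macrophages, chosen after their values were seen, differed on both IgMG arrays. C1qa had 66.5 and 72.8 in IgM and 153.3 and 352.8 in IgMG, C1qb had 50.8 and 87.1 against 185.1 and 353.7, and C1qc had 111.8 and 147.9 against 277.9 and 508.3. For these 3 genes both IgMG arrays were above both IgM arrays, and IgMG array 2 was the highest. Their part in the differences of Apoe, Ctse and other genes was not tested.

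Of 11 tested NK genes 5 were higher without overlap and 0 lower, beside 16.7% and 15.3% over all genes. Their median was 1.04, and it was 0.14 without IgMG array 2 and 2.40 without IgMG array 1. The neutrophil list had 0 of 13 without overlap in either direction, and its median of 0.21 became -1.40 without IgMG array 2 and 2.10 without IgMG array 1. Of 12 erythroid genes 0 separated the groups, with a median of -0.06. The neutrophil list was lowest on IgMG array 1 and highest on IgMG array 2.

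The T cell list held an exception. Zap70, a Syk-related kinase of T and NK cells, had signals of 94.7 and 88.2 in IgM and 356.8 and 328.6 in IgMG, alike on both IgMG arrays, and a difference of 1.74 ± 0.48 (SE, unadjusted p = 0.00559 and adjusted p = 0.965 in limma). With HEL it had 79.0 and 10.5 against 102.9 and 134.3, and 1.41 ± 0.48 (SE). Its other tested probe sets had 1.37 and 0.06. Cd3d, Cd3e, Cd3g and Cd8a were too dim to be tested. Of 7 tested genes 3 were higher without overlap and 2 lower, beside 16.7% and 15.3% over all genes, with a median of 0.28.

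Whether any probe set passed depended on the IgMG arrays. Without IgMG array 1, 32 probe sets (0.429%) had an adjusted p under 0.05 in limma, 30 of them higher, and they included Gzma, Klra3, Ctse, Ptpn22 and Apoe. Without IgMG array 2, 8 probe sets (0.107%) passed, 6 of them lower, and they included Runx1 and Ago2. The 2 sets shared 0 probe sets. In each case the lone IgMG array was assumed to vary like the other groups. Ptpn22 had a difference of 1.90 ± 0.22 (adjusted p = 0.00672) without IgMG array 1 and of 1.14 ± 0.22 (adjusted p = 0.204) without IgMG array 2 (SE, limma). Runx1 had -0.95 ± 0.24 (adjusted p = 0.186) and -2.69 ± 0.25 (adjusted p = 0.0123). Dtx1 had 1.15 ± 0.34 and 1.29 ± 0.34 and Sema4b -1.13 ± 0.26 and -1.43 ± 0.26 (SE), past the threshold with neither IgMG array left out. The IgM arrays moved Dtx1 more, to 0.80 ± 0.24 without IgM array 1 and 1.64 ± 0.24 without IgM array 2 (SE), and again it did not pass.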

How the data were processed

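RNA of sorted B cells was hybridised to 8 single-colour short-oligonucleotide mouse arrays, labelled with biotin. The authors deposited 1 intensity per probe set on a linear scale, computed with MAS5 per the submitters' processing notes; trimmed by 2% at each end, the arrays' means were all near 150.09, and the other settings of that program were not given in the labels. Detection calls were not used here. Of 12488 probe sets 66 controls were left out. Gene symbols came from the platform annotation (10833 probe sets with 1 symbol, 396 with several and not named, 1193 with none), of which 10817 matched GRCm38.p6 gene identifiers; where a gene had several probe sets, the brightest stands for it.

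Signals were analysed as log2(signal + 16). The brightest 60% by mean over all 8 arrays, 7453 probe sets, were tested, two-sided, in limma 3.58.1 (R 4.3.3). The model held 4 group means and all 8 arrays, with a trended eBayes prior (4 residual and 4.87 prior degrees of freedom) and Benjamini-Hochberg adjustment at 0.05. The number of arrays limits the precision. Errors are SEs of the fit. Groups "do not overlap" where both IgMG arrays lay beyond both IgM arrays. Marker lists are given by counts and medians beside all genes, with no test of lists. Named are 12 genes per direction, the 30 brightest probe sets, the 3 brightest and both extreme members of each described list, and a set of B cell genes, given where a probe set had 1 symbol. Members, lists and rules were chosen with earlier results of these data known. A simulation with independent noise, in which 200 of 7453 probe sets were changed, gave 5 false calls. The titles number the experiments within each group, and arrays of equal number were not treated as pairs. Their deviations from group means correlated between -0.16 and 0.02 over 6 pairs of groups, which cannot exclude a shared experiment. Alternatives covered the offset, scaling, filter, variance model, arrays in the fit, a replicate block, averaging of probe sets, the threshold and each array left out. Promoter bases came from RefSeq. Plots used matplotlib 3.10.9 (Python 3.11.15).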

Additional observations from a re-analysis of the deposited data

Results flagged for a closer look

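In 5 of the 24 picked genes the receptor groups did not overlap at rest and did not overlap, in the opposite direction, with HEL. Sema4b had log2 differences of -1.28 at rest and 1.19 with HEL, a change of 2.47, with an adjusted p = 0.102 for the interaction in limma. Runx1 had -1.82 and 0.97, a change of 2.79, and Gfra2 had -1.11 and 0.80, a change of 1.91. Socs5 had 1.39 and -0.41, a change of -1.79, and Fabp5 had 1.16 and -0.55, a change of -1.71. The adjusted p was 0.414 in limma for Runx1, Gfra2, Socs5 and Fabp5, so no interaction passed the threshold. All 5 were picked for their difference at rest, and Socs5, Fabp5 and Gfra2 had signals under 102 on each of the 8 arrays.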

How the results depend on the processing

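The count of probe sets past an adjusted p of 0.05 at rest was 0 with the other offsets, scalings, filters and variance models, the replicate block, the 4 resting arrays alone and a threshold of 0.10, and ranged from 0 to 32 with 1 array left out. The mean over rest and HEL gave 1 call with an offset of 64 and 0 to 43 with 1 array left out, the highest without resting IgMG array 1. The 344 with an unadjusted p under 0.05 became 541 with no filter, 308 with the replicate block and 176 to 677 with 1 array left out. The block is a check only, since equal numbers were not shown to pair the samples. A crossed pairing of the resting IgMG arrays, chosen after seeing the data, gave 0 calls and 339 probe sets with an unadjusted p under 0.05.

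The 91 probe sets at least 2-fold apart became 186, 46 and 32 with offsets of 1, 32 and 64, 43 among the brightest 40%, 60 with probe sets averaged per gene, and 91 to 321 with 1 array left out. All 24 picked genes kept their sign under each alternative run. They were picked without overlap of the groups, so leaving out 1 array or changing the offset could not reverse a sign. The kept signs are therefore no measure of robustness. Their sizes did move: Ptpn22 ranged from 1.14 to 1.90 and Runx1 from -2.69 to -0.95. Of 33 other genes always named, 18 changed sign at least once, among them Fcer2a, at 0.35 with all arrays and -0.46 without IgM array 1. Of 39 list medians, 28 moved by less than the spread between arrays under each alternative.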
